A study of Mus musculus with 20 samples.

Results

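The genes described here are 9 proteases of the epidermis and the inhibitor that restrains several of them: the kallikreins Klk5, Klk6, Klk7, Klk8, Klk10 and Klk11, the membrane-bound serine proteases St14 (matriptase) and Prss8 (prostasin), the caspase Casp14 and the inhibitor Spink5. They were chosen by gene symbol, with earlier results of these data known, and make up 10 of the 25719 genes of the deposited count table. All 10 were present in the table, and 9 of them passed the filter on low counts that left 12424 genes for testing. Klk6 did not.

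RNA was sequenced from keratinocytes of 20 mice, in 4 groups of 5. Mice called cKO carried K14-CreERTam, a Cre recombinase that tamoxifen activates in cells with the keratin 14 promoter, and both alleles of Cyp11b1 floxed (Cyp11b1 L2/L2); Cyp11b1 encodes the last enzyme of corticosterone synthesis. Control mice were littermates that were also Cyp11b1 L2/L2 but lacked Cre. Every mouse, controls included, received tamoxifen on 5 days, either injected into the peritoneum in oil and ethanol (systemic; 100 µl of 10 mg/ml) or put on the skin in ethanol (topical; 20 µl on the ear and 100 µl on the back), and only topically treated mice had the back shaved. On day 6 keratinocytes of ear and back skin were sorted, and RNA of 2 M cells per sample went into SmartSeq II libraries; strain background, age and sex are not given in the sources used here. Since the routes also differ in vehicle and shaving, a difference between routes cannot be told apart from these. The study asked how loss of glucocorticoid synthesis in keratinocytes alters the skin after local and after systemic induction.

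The outer epidermis is shed through a cascade of serine proteases: KLK5 activates itself and KLK7, and KLK5, KLK7 and KLK8 cut the corneodesmosomes that hold corneocytes together. Spink5 encodes LEKTI, which granular keratinocytes secrete and whose fragments inhibit KLK5 and KLK7, and its loss in Netherton syndrome leaves these proteases unchecked. Matriptase and prostasin act at the keratinocyte surface on the way to a tight barrier and to the processing of filaggrin, and caspase-14 takes part in the later breakdown of filaggrin.

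Library totals ran from 11.6 to 50.1 M counts. Levels are CPM, the count of a gene per M counts of its library with TMM scaling, unless stated otherwise. Cyp11b1 had at most 6 reads in any library, so its loss was not detectable at this depth. In 6 libraries, the 5 systemic controls and systemic cKO 2, the summed transcripts of 12 predicted genes of satellite-like sequence were at 79.4 to 37287 CPM, against 0.839 to 42.5 CPM in the other 14. The cut between these sets was at 50 CPM. Systemic control 1 was near it at 79.4 CPM, and the next lowest of the 6 was systemic control 4 at 1937 CPM. A cut above 79.4 CPM would divide the systemic controls. The split at 50 CPM nearly follows genotype after injection, so the systemic genotype differences of Spink5, Klk5 and St14 are given with and without a term for it. For the other genes of the set this difference is given with the term only where its sign changed, and for genes of the lists and markers without it. Systemic cKO 2 is the 1 library that departs from the rest of its group in being over or under 50 CPM. A term for that split therefore compares systemic cKO 2 alone with the 5 systemic controls, and a call lost under it is no sign of a smaller effect. Basal keratinocyte markers (Krt5, Krt14, Itga6 and Col17a1) summed to 52493 to 88785 CPM of the library total, which matches the label, whereas markers of leukocytes reached at most 30.6 CPM, of fibroblasts 32.0 CPM, of melanocytes 35.0 CPM and of endothelium 5.76 CPM. Sebaceous gland markers summed to 4.66 to 311 CPM.

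The 6 kallikrein genes lie on the plus strand of chromosome 7 (GRCm38) between 43774604 and 43851181. Their order, with other genes left out, is Klk11, Klk10, Klk8, Klk7, Klk6 and Klk5. Klk5 (ENSMUSG00000074155) spans 43841971 to 43851181, Klk7 (ENSMUSG00000030713) 43811294 to 43816359 and Klk8 (ENSMUSG00000064023) 43797577 to 43803826. Prss8 (ENSMUSG00000030800) is on the same chromosome at 127925716 to 127930104 on the minus strand. St14 (ENSMUSG00000031995) is at 31089402 to 31131853 of chromosome 9, minus strand, and Casp14 (ENSMUSG00000005355) at 78711991 to 78718294 of chromosome 10, minus strand. Klk8 shares 382 exon bases with 2310002F09Rik and Prss8 shares 122 with Kat8, each on the opposite strand, and whether reads were counted by strand is not given in the sources used here. Kat8 ranged from 9.07 to 17.8 CPM and differed between routes by -0.096 in controls and -0.22 in cKO (adjusted p 0.653 and 0.341). Without strand, reads of the shared bases cannot be told apart.

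The start regions of Klk5, Klk7 and Klk8 are shown because the levels of these genes of the cluster moved together across libraries, as described below. The 250 bases before each RefSeq transcription start (GRCm38.p6, plus strand, 5′ to 3′) read as follows, with matches to CACCC or its complement GGGTG in capitals.
Klk5, chr7:43842019-43842268: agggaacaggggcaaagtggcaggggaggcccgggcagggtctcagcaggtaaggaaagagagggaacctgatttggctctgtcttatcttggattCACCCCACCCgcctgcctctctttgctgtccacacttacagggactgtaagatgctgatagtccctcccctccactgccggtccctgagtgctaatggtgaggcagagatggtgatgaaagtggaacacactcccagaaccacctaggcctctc
Klk7, chr7:43811044-43811293: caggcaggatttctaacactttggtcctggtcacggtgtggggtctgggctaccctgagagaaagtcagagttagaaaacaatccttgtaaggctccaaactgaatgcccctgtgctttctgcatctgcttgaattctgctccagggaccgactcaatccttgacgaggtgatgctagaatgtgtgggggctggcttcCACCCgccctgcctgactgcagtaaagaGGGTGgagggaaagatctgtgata
Klk8, chr7:43797327-43797576: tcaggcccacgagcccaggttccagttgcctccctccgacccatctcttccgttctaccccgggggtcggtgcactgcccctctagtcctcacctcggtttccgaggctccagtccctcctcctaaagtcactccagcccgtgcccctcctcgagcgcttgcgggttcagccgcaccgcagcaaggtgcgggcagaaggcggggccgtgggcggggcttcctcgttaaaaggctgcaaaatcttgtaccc
RefSeq windows of 250 bases before to 50 after the start were found for 7 of the 10 genes (9 windows); St14, Prss8 and Spink5 had no entry. Each window was searched on both strands for TGANTCA (the AP-1 motif), ACANNNTGT (the core of the glucocorticoid receptor element), TATAA and CACCC. The windows of Klk5, Klk7 and Klk8 held no match to the first 3 motifs, which occur in 7.81%, 6.85% and 24.9% of 32851 mouse promoters. CACCC was found at positions -154 and -149 of Klk5 and at -52 and -24 of Klk7, counted from the start, and not in the window of Klk8; 57.5% of all promoters hold it. A TATAA match was found in Klk10 only, among the 7 genes. A match describes the letters of the window, not a binding site.

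Per kilobase of exon model, which allows genes to be set against each other, Klk5 had the highest mean of the 10 over the 20 libraries, at 32.2 ± 27.2 CPM per kilobase (mean ± SD). Klk11 followed at 28.6 ± 5.78, Spink5 at 23.7 ± 18.1 and Klk7 at 20.9 ± 16.3, and these 4 lay within each other's spread. The order of Klk5 and Klk11 rested on systemic cKO, with means of 68.7 and 30.7. Klk11 was above Klk5 in topical control (25.2 against 16.9), topical cKO (24.0 against 13.0) and systemic control (34.7 against 30.1). Klk8 had 12.4 ± 6.63 and Casp14 10.4 ± 5.52 CPM per kilobase. The membrane-bound proteases were lower, at 5.98 ± 1.73 for Prss8 and 4.41 ± 0.932 for St14, and Klk10 had 3.61 ± 0.836. Klk6 was at 0.218 ± 0.172 CPM per kilobase. It had between 0 and 17 reads per library and more than 3 reads, taken as the floor of detection, in 15 of 20 libraries, whereas the 9 other genes had 33 to 8783. No fold change of Klk6 is given, and its levels of 0 to 1.09 CPM overlapped among all 4 groups.

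**Figure D1:**
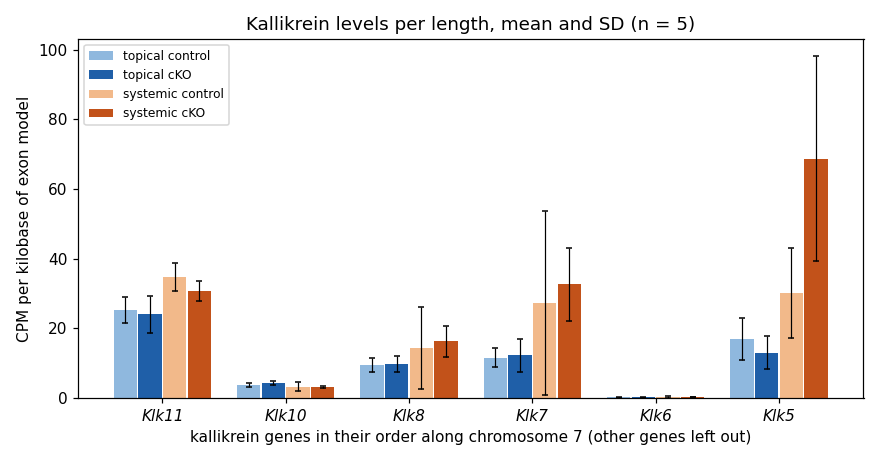
Levels of the 6 kallikrein genes per kilobase of exon model, in their order along chromosome 7. Bars are means and error bars SDs of 5 mice per group. Klk5 and Klk11 stand above Klk8 and Klk10, Klk6 is near 0, and the bar of Klk5 in systemic cKO (68.7 CPM per kilobase) is the tallest.

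The genes fell into patterns across the groups. Spink5 and Klk5 were high in systemic cKO keratinocytes and rose from topical to systemic within the knockout. St14 was higher in cKO than in control keratinocytes by about the same amount under both routes, although only the systemic difference passed the test. Spink5, Klk11 and Prss8 were higher after injection than after topical treatment in control mice. In cKO mice Klk11 and Prss8 differed in the same direction but did not pass the test. Klk7, Klk8 and Casp14 varied widely within the systemic control group, and Klk10 had lower means after injection.

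**Figure D2:**
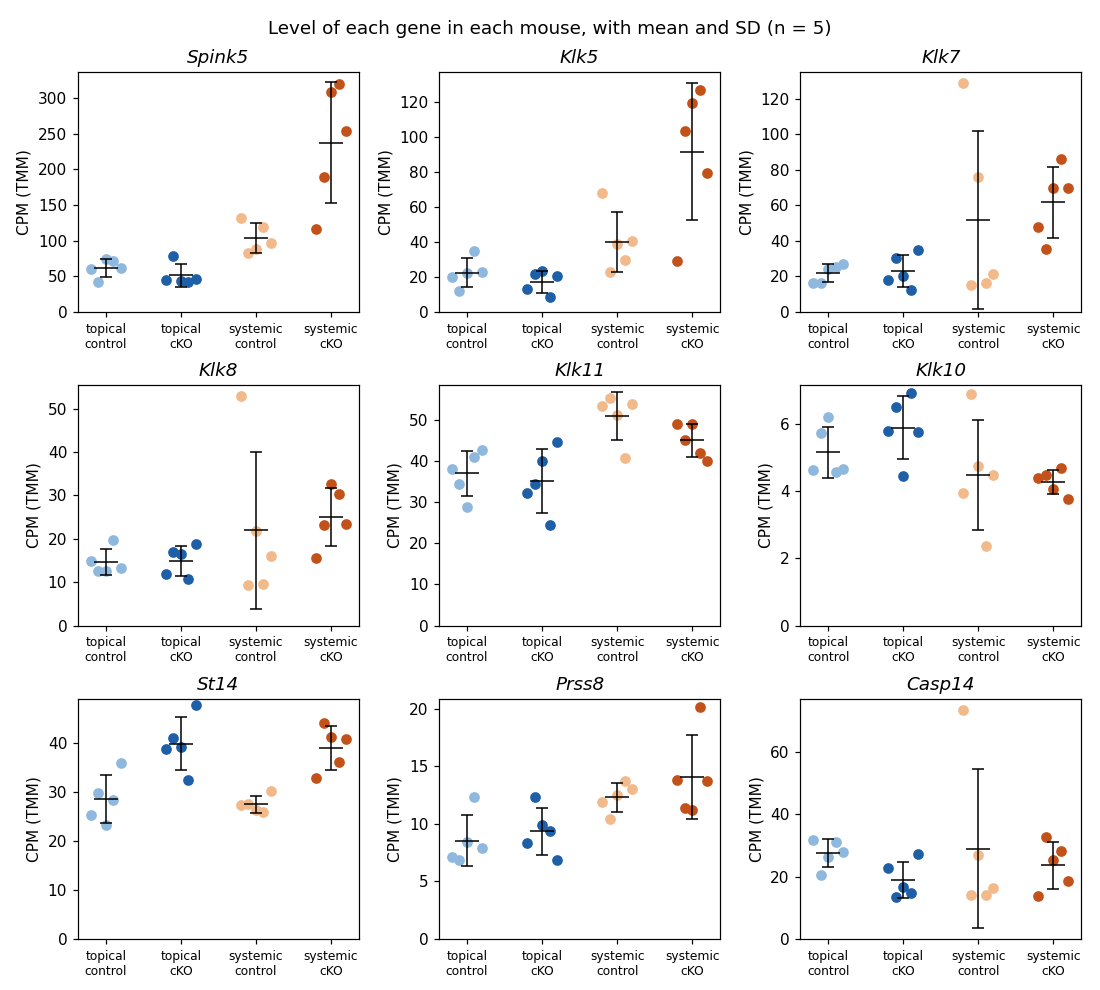
Level of each gene in each mouse, in CPM with TMM scaling (y axis, starting at 0), for the 4 groups on the x axis; horizontal lines mark the mean and error bars the SD of 5 mice. Spink5 and Klk5 in systemic cKO stand above topical cKO in every mouse, the means of St14 are higher in both cKO groups, and systemic control 1 has the highest Klk7 (129 CPM), Klk8 (52.9 CPM) and Casp14 (73.4 CPM).

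Spink5 (ENSMUSG00000055561), a gene of 32 exons at 43963235 to 44022501 of chromosome 18 on the plus strand, was compared first, as the inhibitor of the cascade. In topical controls 1, 3, 5, 6 and 7 it was at 59.9, 42.4, 74.2, 71.3 and 61.1 CPM. In topical cKO 2, 3, 4, 5 and 7 it was at 44.4, 78.8, 43.8, 42.4 and 46.9 CPM. The topical groups overlapped, with topical cKO 3 highest of all 10. In systemic controls 1, 3, 4, 5 and 6 Spink5 was at 131, 82.2, 88.3, 119 and 96.6 CPM. In systemic cKO 2, 4, 5, 6 and 7 it was at 117, 189, 309, 319 and 253 CPM. All systemic libraries were above all topical ones, and 4 of 5 systemic cKO libraries were above the highest systemic control, with systemic cKO 2 within the control range.

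The genotype comparison after injection showed a Spink5 difference of 1.20 on the log2 scale (SE 0.25), from 103 ± 20.9 to 237 ± 84.9 CPM (SD, n = 5 each), a 2.29-fold rise with an adjusted p of 0.0141 (edgeR quasi-likelihood test, Benjamini-Hochberg over all 12424 genes). In bulk RNA, fewer or more cells of a type and less or more RNA per cell cannot be told apart. With the log2 level of satellite-like transcripts as a covariate the change was 0.64 and did not pass the test (adjusted p 0.974). With the split at 50 CPM, which leaves systemic cKO 2 alone against the controls, it was 0.18 (adjusted p 0.99997). Without systemic cKO 2, the cKO library on the high side of that split, it was 1.37 (adjusted p 5.05e-04). The call was lost without systemic control 4 (adjusted p 0.0502), systemic cKO 5 (0.0517) or systemic cKO 6 (0.0537), and in a fit of the 10 systemic libraries alone (0.0942).

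After topical treatment Spink5 was at 61.8 ± 12.5 CPM in controls and 51.2 ± 15.5 CPM in cKO, a log2 difference of -0.27 (95% interval -0.78 to 0.24; adjusted p 0.997). The systemic effect exceeded the topical one by 1.47 (SE 0.35), with an adjusted p of 0.0620, so that a difference between routes in the genotype effect did not pass the threshold. It passed without systemic cKO 2 (1.64, adjusted p 0.00408), topical cKO 3 (0.0332) or systemic control 1 (0.0362), and in the DESeq2 Wald test (0.00581). It also passed with mitochondrial percent as a covariate (0.0316). With the log2 level of satellite-like transcripts as a covariate it was 0.80, and with the split at 50 CPM, resting on systemic cKO 2, 0.45.

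Klk5, the protease at the head of the cascade, was next. Topical controls 1, 3, 5, 6 and 7 had 20.2, 12.2, 22.5, 35.0 and 22.9 CPM, and topical cKO 2, 3, 4, 5 and 7 had 13.0, 21.5, 23.2, 8.73 and 20.5 CPM. In systemic controls 1, 3, 4, 5 and 6 it was at 68.2, 23.1, 38.9, 30.0 and 40.6 CPM, and in systemic cKO 2, 4, 5, 6 and 7 at 29.2, 103.5, 119.7, 127 and 79.5 CPM. As with Spink5, systemic cKO 2 fell within the control range and the 4 other systemic cKO libraries lay above every systemic control.

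From 40.2 ± 17.2 CPM in systemic controls to 91.8 ± 39.4 CPM in systemic cKO, the log2 difference of Klk5 was 1.19 (SE 0.35), as large as that of Spink5, but with an adjusted p of 0.0816 it was not called. It was called without systemic cKO 2 (1.42, adjusted p 0.00749) or systemic control 1 (1.47, 0.0315), in the DESeq2 Wald test (0.0259) and with mitochondrial percent as a covariate (1.27, 0.0453). With the log2 level of satellite-like transcripts as a covariate the difference was 0.23 (adjusted p 0.999). Systemic cKO 2 alone, which the split at 50 CPM sets against the controls, gave -0.46. The topical difference was -0.38 (95% interval -1.12 to 0.35; adjusted p 0.997), with 22.5 ± 8.18 CPM in controls and 17.4 ± 6.22 CPM in cKO. The interaction was 1.58 (SE 0.50, adjusted p 0.144), 1.80 without systemic cKO 2 (adjusted p 0.0219) and -0.075 with that library alone in its arm under the split at 50 CPM.

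St14, which cleaves prostasin and other surface proteins, had a narrower spread. It was at 25.4, 29.9, 23.3, 28.4 and 35.9 CPM in topical controls 1, 3, 5, 6 and 7 and at 38.8, 41.0, 39.2, 32.4 and 47.7 CPM in topical cKO 2, 3, 4, 5 and 7. Of the topical cKO libraries, 4 of 5 were above the highest topical control. In systemic controls 1, 3, 4, 5 and 6 it was at 27.4, 27.6, 26.3, 25.8 and 30.3 CPM, and in systemic cKO 2, 4, 5, 6 and 7 at 32.8, 44.1, 41.1, 36.0 and 40.8 CPM. With TMM scaling the systemic groups did not overlap, which was so for 1.94% of all genes tested. Scaled by library total alone, the spread of the controls was wider, with 29.4 ± 10.3 CPM in systemic controls and 38.0 ± 4.91 CPM in systemic cKO (mean ± SD).

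The systemic difference of St14, from 27.5 ± 1.74 to 39.0 ± 4.51 CPM, was 0.51 on the log2 scale (SE 0.13) with an adjusted p of 0.0431. The topical difference, from 28.6 ± 4.85 to 39.8 ± 5.48 CPM, was 0.48 (SE 0.13) with an unadjusted p of 0.00123 and an adjusted p of 0.331. The interaction was 0.029 (95% interval -0.35 to 0.40), so the genotype differences under the 2 routes were not told apart. In 9 of 10 leave-one-out fits the systemic call was lost, with adjusted p up to 0.124 (without systemic cKO 5), and kept without systemic cKO 2 (0.0120). It was also lost in the fit of the systemic libraries alone (0.120) and with the log2 level of satellite-like transcripts as a covariate (0.35, adjusted p 0.999). The split at 50 CPM, with systemic cKO 2 alone, gave 0.25.

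Prss8, the prostasin gene, was at 8.53 ± 2.22 CPM in topical controls, 9.36 ± 2.03 in topical cKO, 12.3 ± 1.26 in systemic controls and 14.1 ± 3.64 in systemic cKO. Its genotype differences were 0.14 (95% interval -0.24 to 0.53) after topical treatment and 0.18 (-0.19 to 0.56) after injection, with adjusted p of 0.997 and 0.696. Of St14 and Prss8, an activator and its substrate, St14 was called by genotype after injection (0.51), with a similar difference after topical treatment (0.48). Its route differences were -0.057 in controls and -0.029 in cKO (adjusted p 0.787 and 0.922). Prss8 was called by route in controls (0.54, adjusted p 0.0472) and not in cKO, where its difference was 0.58 (0.0507).

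Klk7, the chymotrypsin-like kallikrein of the stratum corneum, was at 16.5, 16.5, 24.0, 25.3 and 27.2 CPM in topical controls and at 17.7, 30.3, 20.2, 12.6 and 34.7 CPM in topical cKO, in the order of the libraries above. Systemic controls 1 and 4 had 129 and 76.0 CPM, whereas systemic controls 3, 5 and 6 had 15.1, 16.6 and 21.5 CPM. Systemic cKO libraries had 47.9, 35.4, 69.5, 86.0 and 69.9 CPM, all between these sets of controls except systemic cKO 6, which was also above systemic control 4. The genotype difference was 0.26 after injection (95% interval -0.73 to 1.25, adjusted p 0.857) and 0.072 after topical treatment (-0.93 to 1.08, adjusted p 0.997). Leaving out systemic control 1 raised the systemic difference to 0.94 (adjusted p 0.221).

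Klk8 resembled Klk7. It ranged from 12.5 to 19.8 CPM in topical controls and from 10.6 to 18.8 in topical cKO, with medians of 13.4 and 16.4. Systemic control 1 stood out with 52.9 CPM, systemic control 4 had 21.7 CPM, and systemic controls 3, 5 and 6 had 9.27, 9.58 and 16.1 CPM. Systemic cKO libraries had 15.5 to 32.6 CPM with a median of 23.4. The genotype difference was 0.20 after injection (95% interval -0.52 to 0.92, adjusted p 0.849) and 0.83 without systemic control 1 (adjusted p 0.0843), and 0.022 after topical treatment (-0.71 to 0.75, adjusted p 0.998).

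Klk11, another kallikrein of the upper epidermis, was at 37.0 ± 5.53 CPM in topical controls, 35.2 ± 7.71 in topical cKO, 50.9 ± 5.85 in systemic controls and 45.0 ± 4.09 in systemic cKO. Its genotype differences were -0.077 and -0.18 (adjusted p 0.997 and 0.626). Klk10 was at 5.16 ± 0.759, 5.89 ± 0.938, 4.48 ± 1.63 and 4.28 ± 0.365 CPM in the same order, with genotype differences of 0.20 and -0.075 (adjusted p 0.997 and 0.911). For both genes the systemic interval stayed within -0.49 to 0.34, whereas intervals for Klk7 reached 1.25.

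Casp14 was at 27.5 ± 4.44 CPM in topical controls and 19.003 ± 5.80 CPM in topical cKO. Casp14 in 3 of 5 topical cKO libraries was below the lowest control at 20.6 CPM, and the log2 difference was -0.54 (95% interval -1.30 to 0.23; adjusted p 0.985). After injection controls 1, 3, 4, 5 and 6 had 73.4, 14.1, 27.0, 14.01 and 16.4 CPM and cKO 2, 4, 5, 6 and 7 had 13.7, 32.5, 25.3, 28.1 and 18.6 CPM. The systemic difference was -0.28 (-1.04 to 0.47, adjusted p 0.780) and had the opposite sign, 0.41, without systemic control 1.

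By count, no member passed the test in the topical genotype comparison (0 of 9), where 0.129% of all genes did. St14 alone among the 9 had an unadjusted p under 0.05, as did 703 genes in all, and DESeq2 called 0 of 9 as well. In the systemic genotype comparison 2 of 9 passed, against 1.89% of all genes, and 6 of 9 were higher in cKO; their median log2 fold change was 0.20 and that of all genes -0.0045. In the interaction 0 of 9 passed, against 0.25% of all genes; Spink5 and Klk5 had an unadjusted p under 0.05, as did 1739 genes in all, and DESeq2 called 1 of 9. The interaction and the route comparisons use the libraries of the genotype comparisons again and are not independent of them.

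**Figure D3:**
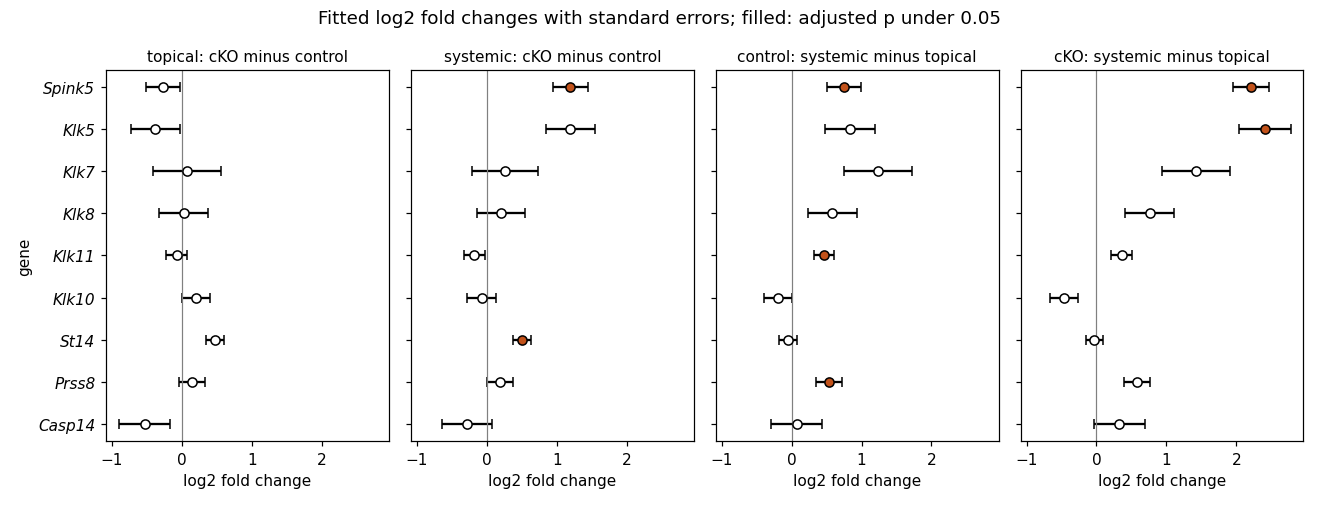
Fitted log2 fold changes of the 9 tested genes (x axis; y axis, genes) in the genotype comparisons of each route and the route comparisons of each genotype. Error bars are standard errors, and filled points have an adjusted p under 0.05 over all genes tested. Spink5 and Klk5 are farthest to the right in the comparison of systemic with topical cKO, and St14 has the same offset in both genotype panels.

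The routes were compared within each genotype. In cKO mice 2 of 9 genes were called, against 9.22% of all genes, and 7 of 9 were higher after injection; the median log2 fold change was 0.58 for the 9 genes and -0.013 for all genes. Spink5 rose 4.63-fold, or 2.21 on the log2 scale (SE 0.25, adjusted p 3.01e-05), and Klk5 rose 5.32-fold, by 2.41 (SE 0.37, adjusted p 2.58e-04). Neither gene's groups overlapped, nor did those of Klk7, and 7.39% of all genes were separated in this way. Klk7 had a log2 difference of 1.42 (SE 0.49) but an adjusted p of 0.0727; it was called in the DESeq2 Wald test (0.0213), in the fit of the cKO groups alone (0.0122) and with the log2 satellite-like level as a covariate (0.0478). Prss8 was 0.58 (SE 0.18, adjusted p 0.0507), Klk8 0.76 (SE 0.35, 0.196), Klk11 0.36 (SE 0.15, 0.142) and Casp14 0.33 (SE 0.37, 0.645). Prss8 was called in the DESeq2 Wald test (0.0287), with DESeq2 size factors (0.0498) and with mitochondrial percent as a covariate (0.0247). Klk10 was lower, by -0.47 (SE 0.20), with an adjusted p of 0.159.

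The calls of Spink5 and Klk5 between routes in cKO held without each of the 10 cKO libraries in turn. In the 14 libraries low in satellite-like transcripts, which leave out systemic cKO 2, Spink5 changed by 2.38 (adjusted p 1.34e-05) and Klk5 by 2.64 (4.96e-05). Klk7 and Klk8 were called there as well, with 1.505 (adjusted p 0.00299) and 0.89 (0.00645), which made 4 of 9 genes against 8.45% of all genes in that fit. Leukocyte markers, of which 1 of 6 passed the filter on low counts, moved with this comparison: their sums were 5.90 to 11.4 CPM in topical cKO and 14.5 to 30.6 CPM in systemic cKO, and 6.08 to 12.1 and 6.17 to 26.4 CPM in topical and systemic controls. Basal markers went the other way, with 75717 to 88785 CPM in topical cKO and 55236 to 71092 CPM in systemic cKO. No marker of either type was called in this comparison: the leukocyte marker tested changed by 0.93 on the log2 scale and the median of the basal markers by -0.19. Medians of fibroblast, endothelium and sebaceous gland markers were -1.26, -0.92 and -1.07, with none called. The part of these cell types in the result was not tested.

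In control mice 3 of 9 were called between routes, against 18.3% of all genes, and 7 of 9 were higher after injection. Spink5 rose by 0.74 on the log2 scale (SE 0.25, adjusted p 0.0384), Klk11 by 0.46 (SE 0.15, 0.0344) and Prss8 by 0.54 (SE 0.19, 0.0472). Of the 9 genes, only the groups of Spink5 did not overlap, as for 13.8% of all genes. For Klk11, 4 of 5 systemic controls were above the highest topical control, and for Prss8 3 of 5. These calls were not firm: Klk11 lost its call in 7, Prss8 in 9 and Spink5 in 6 of the 10 fits without 1 library, and all 3 lost it when every gene with a count was tested (adjusted p 0.0813, 0.0799 and 0.0556). In controls the route and the satellite-like split at 50 CPM are the same division of libraries and cannot be told apart, although systemic control 1 (79.4 CPM) was near that cut. With the log2 satellite-like level as a covariate, Spink5 (1.36, adjusted p 0.0282) and Klk5 (1.86, 0.0238) were called, and Klk11 (0.42, 0.394) and Prss8 (0.53, 0.394) were not. Klk7 and Klk5 differed by 1.23 (SE 0.48, adjusted p 0.0805) and 0.83 (SE 0.35, 0.102), and without systemic control 1 these were 0.56 and 0.56; Klk7 was called in the DESeq2 Wald test (0.0358). Klk8 (0.58, adjusted p 0.255), Casp14 (0.073, 0.910) and Klk10 (-0.19, 0.537) did not pass either.

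Spink5 and Klk5 tracked each other across mice. Over the 20 libraries Pearson's r of log2 CPM was 0.93 (Spearman's rho 0.90), 0.76 after subtraction of group means and 0.89 without systemic cKO 5 and 6, the libraries farthest from the median of Klk5. Klk5 and Klk7 had r = 0.77, and 0.59 after subtraction of group means. As a ratio of reads, Spink5 per Klk5 had medians of 2.97 in topical control, 3.41 in topical cKO, 2.38 in systemic control and 2.58 in systemic cKO, with a range over all libraries of 1.82 to 4.85. The groups overlapped in this ratio, whereas the group means of Spink5 itself ran from 51.2 to 237 CPM. Spink5 per Klk7 ranged more widely, from 1.02 in systemic control 1 to 7.17 in systemic control 5. These are descriptions across libraries that share the groups, the route and the satellite-like split, with no test.

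**Figure D4:**
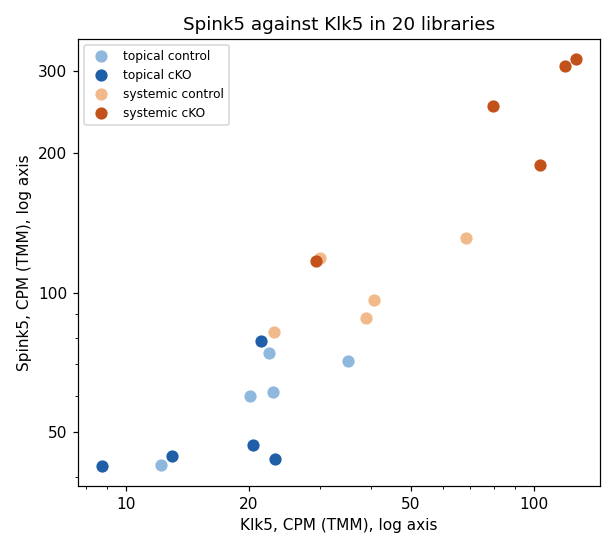
Spink5 (y axis) against Klk5 (x axis) in the 20 libraries, in CPM with TMM scaling on log axes, coloured by group. The points lie along one band with r = 0.93; the 4 highest are systemic cKO libraries, and systemic cKO 2 lies among the systemic controls.

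Klk7 and Klk8, 2 neighbours in the gene cluster, were each other's most similar gene among 12423, with r = 0.89 and 0.87 after subtraction of group means. The next most similar genes were Slc37a2 (0.87) and Ivl (0.85), the involucrin gene of the cornified envelope, for Klk7, and Slc37a2 (0.83) and Ablim1 (0.81) for Klk8. The most similar genes to Klk5 were Mboat2, Dkkl1 and Hal, with r of 0.97, 0.96 and 0.96, and Spink5 ranked 12. Those to Spink5 were Mboat2 (0.97), Kprp (0.96) and Wfdc21 (0.96). Those to St14 were Zmat3 (0.84), Usf1 (0.77) and Dnase2a (0.76), to Prss8 Sorl1, Rab11fip1 and Mark2 (0.85, 0.85 and 0.84), to Klk11 Nlrc5, Lztr1 and Srsf5 (0.89, 0.87 and 0.87), and to Casp14 Ddx28, Adgrf4 and Slc6a20a (0.90, 0.86 and 0.85). Klk10 had Rilpl1, Il16 and Mastl (0.78, 0.77 and 0.76) and negative r with Klk5 (-0.52) and Spink5 (-0.50). St14 had r between -0.10 and 0.26 with the 8 other genes. These correlations are over 20 libraries and describe likeness of level.

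Other kallikreins were mostly too low to test. Of Klk1, Klk4, Klk9, Klk12, Klk13, Klk14 and Klk15, 1 passed the filter. This was Klk9, with group means of 0.976 to 1.51 CPM, and it was called in none of the 5 comparisons (adjusted p 0.582 to 0.997). Of 9 other serine proteases tested, none was called by genotype. Between routes in cKO Tmprss11f rose by 1.36 (adjusted p 0.00617), and Plau, the urokinase gene, fell by 0.70 on the log2 scale (0.0475); in controls Plau fell by 1.41 and Plat, the tissue plasminogen activator gene, by 1.04.

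Of 22 other protease inhibitors tested, none was called after topical treatment and 2 were called, both higher, in systemic cKO against control: Wfdc21, from 0.967 ± 0.438 to 7.43 ± 5.15 CPM (log2 fold change 2.94, SE 0.50, adjusted p 0.00342), and Serpina12, vaspin, which inhibits KLK7, from 2.22 ± 0.684 to 10.3 ± 5.95 CPM (2.19, SE 0.47, 0.0176). The median of the 22 was 0.18, and 1.89% of all genes were called in this comparison. With the log2 level of satellite-like transcripts as a covariate, 0 of all genes were called in it. Between routes in cKO, 4 of 22 rose, Wfdc21 (4.51), Serpina12 (2.93), Serpinb12 (1.89) and Serpinb13 (1.64), and 2 fell, Serpinb6a (-0.86) and Serpinb6c (-2.30). Over all genes 5.19% were called higher and 4.02% lower in that comparison. In controls, where 8.16% of all genes were called lower, Serpinb6a (-0.93) and Serpinb6c (-1.72) fell too. Spint1, which encodes the matriptase inhibitor HAI-1, rose between routes in controls by 0.40 (adjusted p 0.0467) and changed with genotype by 0.13 and 0.15 (adjusted p 0.997 and 0.672), and Spint2 was called in no comparison.

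Of 19 substrates and receptors tested, 3 were called higher in systemic cKO than in control, where 1.89% of all genes were called. With the log2 level of satellite-like transcripts as a covariate, 0 of all genes were called there. Cdsn, the corneodesmosin that KLK5 and KLK7 cleave, rose from 49.5 ± 19.2 to 171 ± 75.3 CPM (log2 fold change 1.79, SE 0.34, adjusted p 0.00728). Scnn1a, a subunit of the sodium channel that prostasin activates, rose by 1.24 (0.0176) and Flg2, filaggrin-2, by 1.78 (0.0318). The median of the 19 was 0.022. Between routes in cKO, where 9.22% of all genes were called, 5 of 19 rose, with a median of 0.59: Flg2 (3.71), Cdsn (2.22), Dsc1 (1.26), Hrnr (2.55) and Dsg1a (1.12). In controls Flg2 rose by 1.85. Of 19 cathepsins, calpains, caspases and other proteases of cornification, Blmh, which completes filaggrin breakdown, was called in the systemic genotype comparison (0.91, adjusted p 0.0498). Between routes in cKO Capn1 (0.86) and Asprv1 (1.43), the filaggrin-processing protease, rose, and Capn2 (-1.33) and Ctsz (-0.98) were among those that fell; in controls Casp1 rose (0.85) and Ctsh (-0.47) was among those that fell. Of the 70 list genes tested, edgeR called 0 after topical treatment and 0 in the interaction, where 10 and 16 had an unadjusted p under 0.05. It called 6 of 70 after injection, 18 between routes in cKO and 9 between routes in controls. The shares over all genes were 1.89%, 9.22% and 18.3% in the same order.

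Markers of granular keratinocytes (Flg, Lor, Ivl and Flg2) moved with the Spink5 and Klk5 levels. Their summed level had medians of 28.6 CPM of the library total in topical control, 23.8 in topical cKO, 40.1 in systemic control and 83.8 in systemic cKO, with ranges of 16.002 to 34.7, 18.7 to 43.9, 28.0 to 61.0 and 27.9 to 126 CPM. Lor, the loricrin gene, and Flg2 were called higher in systemic cKO than in systemic control (2 of 4, against 1.89% of all genes), Lor by 2.62. Between routes in cKO Lor, Ivl and Flg2 were called higher (3 of 4, against 9.22% of all genes). Flg had a genotype difference of -0.68 after injection (adjusted p 0.746). The lowest granular sum of the systemic cKO group, 27.9 CPM, was in systemic cKO 4, where Spink5 was at 189 CPM. Suprabasal markers (Krt1, Krt10, Krtdap and Sbsn) had medians of 28089, 19026, 20822 and 30311 CPM in the same order, and basal markers 67312, 79684, 62744 and 56658 CPM. The part of cell composition in the protease levels was not tested.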

How the data were processed

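The authors deposited 1 table of raw counts (reads per gene, whole numbers, not normalized) for 20 libraries. The submitters' processing notes name STAR and featureCounts and the builds GRCm38 and mm10; versions, strand setting and treatment of reads that map to several places are not given in the sources used here. One edgeR model (version 4.0.16, R 4.3.3) took in all 20 libraries, with TMM scaling, filterByExpr at its defaults (minimum count 10, total 15), robust quasi-likelihood dispersion, a coefficient for each group, two-sided F tests, Benjamini-Hochberg adjustment over 12424 genes and calls at an adjusted p under 0.05. Standard errors come from the log2 fold change and its F statistic. Counting error alone is smallest in the deepest libraries; with no molecular identifiers described, reads are not independent molecules. Groups follow the labels, and nothing in them says whether numbers pair mice.

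Every gene of the set is named in each comparison, as are called genes of the 5 lists of related proteases, inhibitors and substrates (up to 6 per list and comparison) and the 3 genes most similar to each by Pearson's r of log2 CPM (prior count 2), predicted genes passed over. One called gene of these lists is not reported here. Members and lists were chosen with earlier results of these data known. Exon models are from GENCODE on GRCm38, which held 25614 of 25719 identifiers. Alternatives were DESeq2 1.42.0 (size factors; Wald test), library-total scaling, filters, fits of the compared groups alone, a replicate block, covariates for satellite-like transcripts, sex read from Y-linked genes and mitochondrial percent, and leaving out each library; the mitochondrial covariate and the fit of 14 libraries were chosen after seeing the data. The test was checked on simulated data. Replicates within a group correlated at 0.932 to 0.986 across genes, and no columns were identical.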

Additional observations from a re-analysis of the deposited data

Results flagged for a closer look

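Among 40 combinations of gene and group, 5 held a mouse whose distance to its nearest neighbour took up most of the range of its group. For normally distributed values chance gives about 1 such case in 20 groups of this size. The levels here were not on a log scale, and genes of the same library are not independent. The 5 cases can therefore not be set against that rate. Klk8 was at 52.9 CPM and Casp14 at 73.4 CPM in systemic control 1, against next values of 21.7 and 27.0 CPM. Klk7 was also highest in this mouse, at 129 CPM. Spink5 was at 78.8 CPM in topical cKO 3, where the 4 other topical cKO mice had 42.4 to 46.9 CPM; the summed granular markers were highest of that group in the same mouse, at 43.9 CPM. Prss8 was at 12.4 CPM in topical control 6, above a next value of 8.40 CPM. Klk11 was at 40.7 CPM in systemic control 5, below the 4 other systemic controls at 51.2 to 55.2 CPM.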

How the results depend on the processing

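Of 999 combinations of a gene's test and an alternative, 860 kept direction and side of the threshold, 50 lost and 26 gained a call and 63 changed sign. Of 222 counts of calls, 156 stayed within 1.5 times. The cause was not tested. Spink5 and Klk5 kept their calls between routes in cKO under every alternative run. Library-total scaling moved the level of St14 in systemic controls from 27.5 ± 1.74 to 29.4 ± 10.3 CPM (mean ± SD).

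Leaving out 1 library gave 10 to 19 called genes after topical treatment, 81 to 787 after injection (members 0 to 3), 16 to 470 in the interaction (members 0 to 2), 1463 to 2524 between routes in controls (members 0 to 3) and 746 to 1218 in cKO. It also changed signs. In the topical comparison Klk7 ranged from -0.12 to 0.23, Klk8 from -0.075 to 0.15 and Klk11 from -0.18 to 0.030. In the systemic comparison Klk10 ranged from -0.23 to 0.13 and Casp14 from -0.46 to 0.41. In the interaction Klk7 ranged from -0.045 to 0.87, Klk8 from -0.018 to 0.80, Klk11 from -0.21 to 0.00095, St14 from -0.066 to 0.10 and Prss8 from -0.12 to 0.16. Between routes in controls Klk8 ranged from -0.043 to 0.78, St14 from -0.12 to 0.038 and Casp14 from -0.62 to 0.25, and in cKO St14 from -0.095 to 0.044. The largest counts after injection and in the interaction were without systemic cKO 2.

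The DESeq2 Wald test called 42 genes after topical treatment, 559 after injection, 321 in the interaction (1 member, Spink5) and 4 members between routes in cKO (12.4% of all genes). Testing every gene with a count left 1 member called after injection and 0 between routes in controls. A minimum mean of 5 CPM gave 49 genes in the interaction, with St14 at -0.020 and Prss8 at -7.9e-05, and sex as a covariate also gave 49. The fit of the compared groups alone called 35 genes and 0 members after injection.

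Same-numbered mice of different groups did not all deviate together: 9 of 20 pairs had r over 0.1, with r from -0.31 to 0.51, so the numbers were not taken to pair mice. With the number as a replicate block 9 genes were called after topical treatment and 0 in the interaction, and after injection Klk5 was called (1.41, adjusted p 0.0294) and St14 was not (0.48, 0.0780). Signs changed for Klk5 (0.074) and Spink5 (0.052) after topical treatment, Klk10 (0.019) and Casp14 (0.15) after injection, St14 (-0.011) and Prss8 (-0.065) in the interaction and Casp14 (-0.26) between routes in controls under the replicate block.

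With satellite-like transcripts over 50 CPM as a covariate, the systemic genotype, interaction and control route values rest on systemic cKO 2 alone, and calls lost there say nothing of stability: 0 genes and 0 members were called after injection, 0 genes in the interaction, and 1 gene and 0 members between routes in controls. After injection Klk5 was -0.46, Klk7 -0.10 and Klk8 -0.50. In the interaction Klk5 was -0.075, Klk7 -0.17, Klk8 -0.52, Klk11 0.024, St14 -0.22 and Casp14 -0.55. St14 was 0.25 between routes in controls and 0.027 in cKO. With their log2 level as a covariate, 0 genes and 0 members were called after injection, 0 genes in the interaction and 122 genes (0.982%) and 2 members, Spink5 and Klk5, between routes in controls. After injection Klk7 was -0.17, Klk8 -0.35 and Klk10 0.077, in the interaction Klk7 -0.38, Klk8 -0.50, St14 -0.15 and Casp14 -0.59, and between routes in controls St14 0.13. The mitochondrial covariate gave 1320 genes after injection, with Klk5 called (1.27, adjusted p 0.0453), 364 genes and 1 member in the interaction, and 3496 genes between routes in controls, where Casp14 was -0.088. The 14 libraries low in satellite-like transcripts gave 4 members between routes in cKO (8.45% of all genes), with St14 at 0.029.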
